A study of Mus musculus with 24 samples.

Results

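Hepatocyte transcriptomes of aged mice given a high-fat diet together with rapamycin were compared with those of mice kept on normal diet with vehicle, to ask which parts of the diet response were still present under the drug and which differences were seen in the combined state and not with the diet alone. The comparison held 17 of the 24 libraries of the series, 9 from HFD + eRapa and 8 from ND + veh, chosen by their labels. The 7 libraries of HFD + veh served to sort the differences. All animals were C57BL/6J male mice. They received vehicle or rapamycin encapsulated in eudragit (eRapa, 42 ppm in the food) from 4 months of age. At 18 months they either remained on the normal diet, with vehicle (ND + veh), or were moved for 9 weeks to food with 60% of its calories from fat, with vehicle (HFD + veh) or with eRapa (HFD + eRapa). Hepatocytes were freed by a perfusion of the liver in 2 steps, and polyadenylated RNA was sequenced. No animals on normal diet with eRapa were analysed here, so in this comparison the diet and the drug changed together and cannot be told apart. HFD + eRapa against HFD + veh differs by the drug alone.

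The hepatocyte takes up dietary fat, burns it in mitochondria and peroxisomes, stores it in lipid droplets or exports it, and makes fat from sugar when fed. Peroxisome proliferator-activated receptor alpha (PPAR alpha) is the fatty acid sensor that drives the genes of oxidation, and sterol regulatory element-binding proteins drive those of lipid and sterol synthesis. Rapamycin inhibits mTOR complex 1, the kinase that couples nutrients and insulin to growth, protein synthesis and lipid synthesis. The extracellular matrix of the liver is made largely by stellate cells, which lie beside the sinusoids and can remain in a hepatocyte preparation.

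The libraries held 17.74 to 25.95 M counts (M, mega), with medians of 19.985 M in ND + veh, 21.62 M in HFD + veh and 19.69 M in HFD + eRapa. The labelled cell type was checked on 12 hepatocyte markers, all detected, and their summed level ran from 74771 to 188745 CPM (counts per M counts after scaling) in ND + veh and from 75176 to 170970 CPM in HFD + eRapa. Albumin (Alb), the main secreted protein of hepatocytes, lay at 42062 to 127656 CPM, median 94541, in ND + veh and 31429.7 to 113335 CPM, median 77462, in HFD + eRapa, and was not called (log2 fold change -0.41, SE 0.22, adjusted p = 0.239). Without ND + veh replicate 4 its log2 fold change was -0.53, adjusted p = 0.0909, and without all 3 libraries described next it was -0.65, adjusted p = 0.0222, which passed the test. ND + veh replicate 4 stood apart, with the lowest hepatocyte marker sum of its group, the others being at 136276 CPM or above. HFD + veh replicate 6 and HFD + eRapa replicate 2 had the largest sums of red blood cell markers in their groups, at 664 and 311 CPM. Results that rest on 1 of these 3 libraries are given with and without it. Markers of macrophages summed to medians of 305 CPM in ND + veh, 2986 CPM in HFD + veh and 237 CPM in HFD + eRapa, and those of endothelial cells to 405, 727 and 243 CPM. The HFD + eRapa group was split in these sums. Macrophage markers lay at 451 to 1264 CPM in its replicates 1 to 4 and at 19.5 to 237 CPM in replicates 5 to 9. Endothelial markers lay at 324 to 548 CPM and at 106 to 243 CPM. The ND + veh ranges were 55.6 to 1591 CPM for macrophages and 137 to 746 CPM for endothelial cells. HFD + veh, the group used to sort the differences, was split too. Its macrophage sums were 202 and 208 CPM in replicates 1 and 2, and 1110 CPM in replicate 7. Its replicates 3 to 6 held 2986 to 5948 CPM. Its endothelial sums ran from 193 to 1160 CPM, with 193 and 244 CPM in replicates 1 and 2. None of the 13 macrophage markers and 1 of the 13 endothelial markers passed the test between HFD + eRapa and ND + veh. Red blood cell markers had medians of 52.1 CPM in ND + veh and 110 CPM in HFD + eRapa, with 3 of 5 higher, and cholangiocyte markers 123 and 149 CPM, with 1 of 6 higher. The first sum was mostly Alas2, with means of 50.2 and 105 CPM in these groups. The globin gene Hbb-bs had means of 1.26 and 20.9 CPM. The second sum was mostly Tm4sf4, with means of 94.9 and 102 CPM. Lymphocyte markers had medians of 1.44 CPM in ND + veh and 2.15 CPM in HFD + eRapa, and neutrophil markers 1.15 and 2.89 CPM. Only 2 of 13 lymphocyte and 4 of 9 neutrophil markers could be tested, and none of these was called. The median log2 fold changes of those tested were -0.43 and 1.78.

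Of 13847 genes tested, 1865 (13.5%) were called between HFD + eRapa and ND + veh at an adjusted p under 0.05, 959 higher (6.93%) and 906 lower (6.54%). The median log2 fold change over all genes tested was -0.03. In 467 genes (3.37%), 297 higher and 170 lower, every animal of one group lay beyond every animal of the other. For orientation, the diet alone (HFD + veh against ND + veh) gave 3584 calls (25.9%), and the drug on the diet (HFD + eRapa against HFD + veh) gave 4432 (32%). The 3 comparisons share animals in pairs, so counts that combine them are descriptions, and the direct test of HFD + eRapa against HFD + veh decides whether the states on high-fat diet differ. In bulk libraries such as these, fewer cells of a type and less RNA per cell cannot be told apart.

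The diet effect was retained in 712 genes, 378 higher and 334 lower, meaning that they were called in the same direction with the diet alone and in the combined state. They made up 19.9% of the diet-called genes and 38.2% of those called in the combined state. The median log2 fold change of the retained rises was 0.74 in HFD + eRapa and 0.71 in HFD + veh, and that of the falls was -0.79 and -0.83. Of these 712 genes, 607 were not called between HFD + eRapa and HFD + veh, 58 lay further from ND + veh under the drug and 47 had moved back part of the way. Another 2817 diet-called genes (78.6%) were not called between HFD + eRapa and ND + veh, and 1952 of them were called back toward ND + veh against HFD + veh. A further 717 genes, 336 higher and 381 lower, were particular to HFD + eRapa: they were called against ND + veh, not called with the diet alone, and called in the same direction against HFD + veh. Their median log2 fold changes in HFD + eRapa were 0.63 for the rises and -1.34 for the falls, against 0.01 and 0.07 in HFD + veh. The medians of the retained and particular genes follow largely from the calls that define these classes, and are descriptions only. With a score of stellate, endothelial and macrophage markers as a covariate, 3219 genes were called between HFD + eRapa and ND + veh, 1379 retained and 317 particular to the combined state, 199 of these 317 being among the 717. In 381 genes the direct test did not decide, and 55 genes were called in opposite directions in both states on high-fat diet. The plot of genes by class sets the fold changes of both states side by side.

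**Figure D1:**
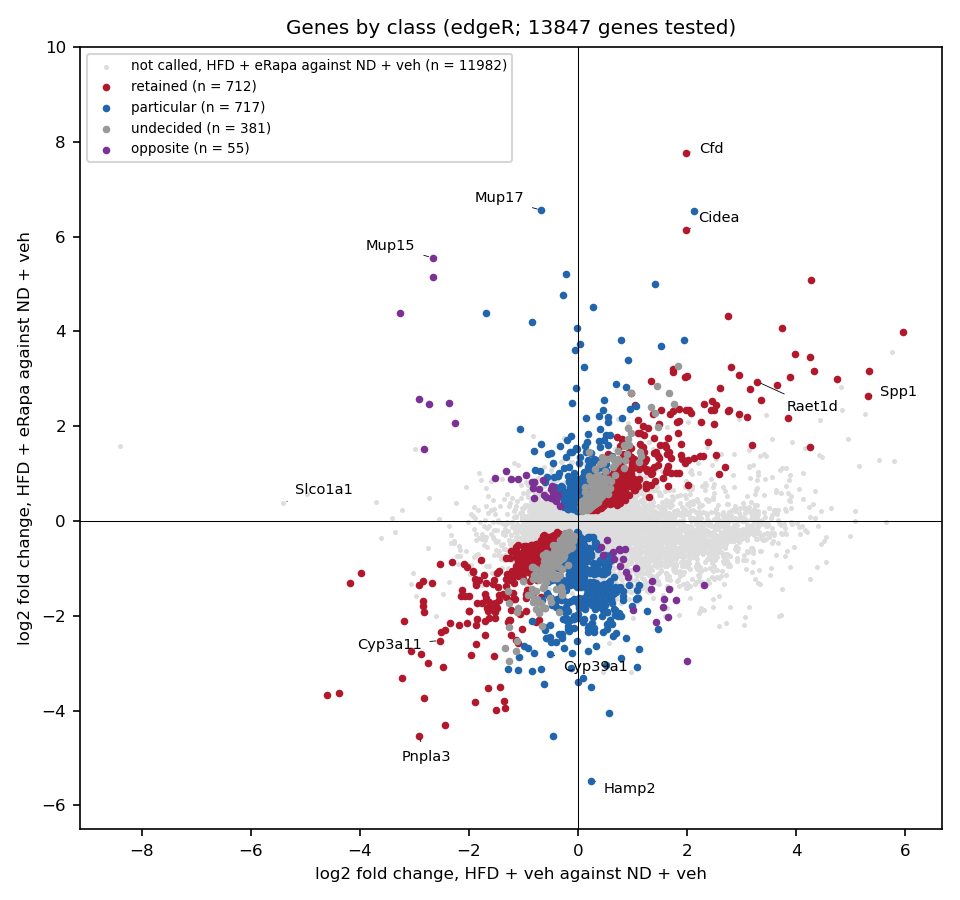
Log2 fold change against ND + veh for 13847 genes, in HFD + veh (horizontal axis) and HFD + eRapa (vertical axis), with colours for the classes. Both axes share the ND + veh animals, which by itself tilts the cloud upward to the right. By the way the classes were defined, the 717 genes particular to HFD + eRapa lie along the vertical axis, and the 712 retained genes lie in the upper right and lower left.

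Members of 34 gene lists were counted (the chart of gene lists gives each share). Fatty acid oxidation (30 of 41 members higher), major urinary proteins (14 of 19 higher) and the breakdown of branched-chain amino acids (15 of 25 higher) had the largest shares of rises among the lists. Collagens (9 of 21 lower), families 1 to 3 of cytochrome P450 (14 of 37 lower), fatty acid and triglyceride synthesis (12 of 32 lower) and endoplasmic reticulum chaperones with the unfolded protein response (13 of 37 lower) had the largest shares of falls. These shares compare with 6.93% and 6.54% over all genes tested. By class the lists differed: the rises in fatty acid oxidation were particular to HFD + eRapa in 26 members, whereas the falls in fatty acid synthesis were retained from the diet in 9.

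**Figure D2:**
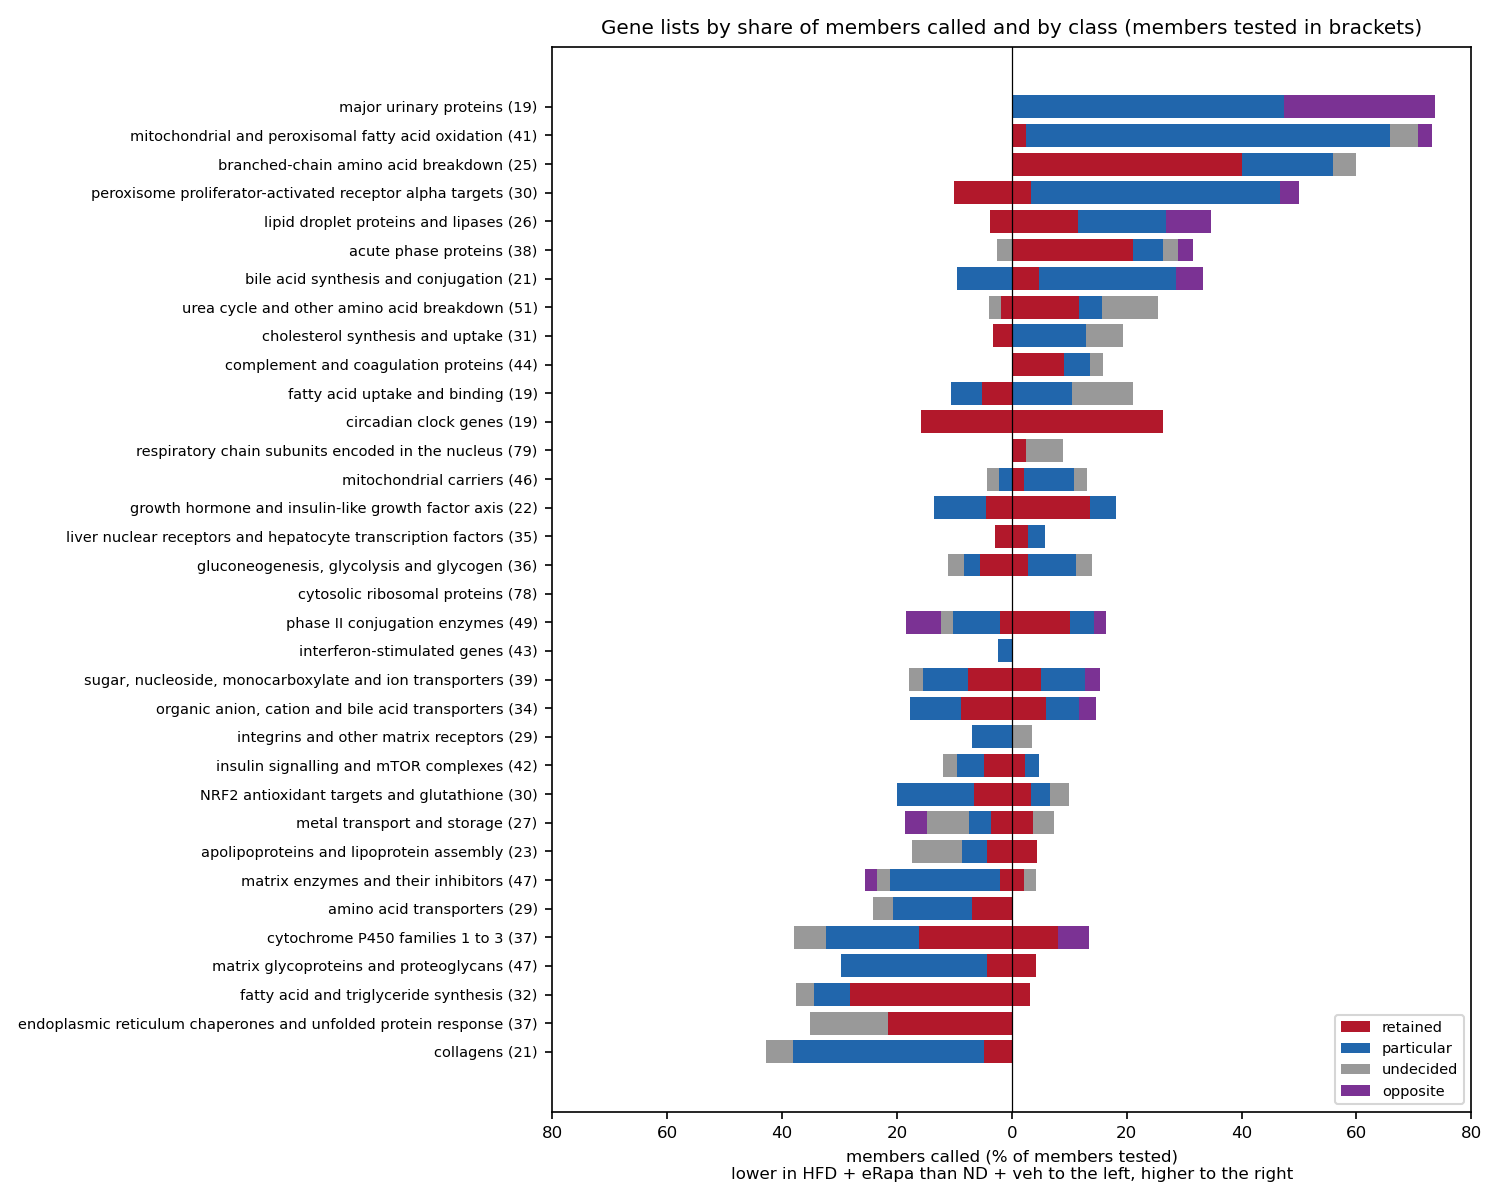
Share of tested members of each of 34 gene lists called higher (right) or lower (left) in HFD + eRapa against ND + veh, in percent, with colours for the classes and the number tested in brackets. Fatty acid oxidation and the major urinary proteins reach furthest to the right, collagens furthest to the left, and no cytosolic ribosomal protein gene was called.

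Most genes of fatty acid oxidation rose in the combined state. Of 41 members of mitochondrial and peroxisomal oxidation, 30 rose from ND + veh to HFD + eRapa and none fell, with a median log2 fold change of 0.58 against -0.04 in HFD + veh, where 2 were higher and 2 lower. Against HFD + veh, 32 were higher and none lower. Cpt1a (ENSMUSG00000024900.5, chr19:3322334-3385733, plus strand) admits long-chain fatty acids to the mitochondrion. Its level was 248 to 460.1 CPM, median 377, in ND + veh, 273 to 636 CPM, median 373, in HFD + veh and 519.7 to 706 CPM, median 674, in HFD + eRapa. All 9 combined-state animals were above all 8 on normal diet (log2 fold change 0.81, SE 0.15, adjusted p = 0.000827, and against HFD + veh 0.61, adjusted p = 0.00642), and the diet alone was not called (log2 fold change 0.20, adjusted p = 0.368). Slc25a20, the carrier that moves acylcarnitines across the inner membrane, went from 80.02 to 127 CPM (median 100.18) in ND + veh to 154 to 212 CPM, median 181, in HFD + eRapa (log2 fold change 0.87, SE 0.10, adjusted p = 4.73e-06). The groups did not overlap in Decr1 (log2 fold change 0.90) and Decr2 (0.96) either, the mitochondrial and peroxisomal reductases used for unsaturated chains. The rise was not shared by every step: Acadvl, Acadl, Ehhadh and Crot had log2 fold changes of 0.41, 0.27, 0.24 and 0.57 and did not pass the test against ND + veh. The count of 30 stayed between 26 and 31 as each library was left out in turn.

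**Figure D3:**
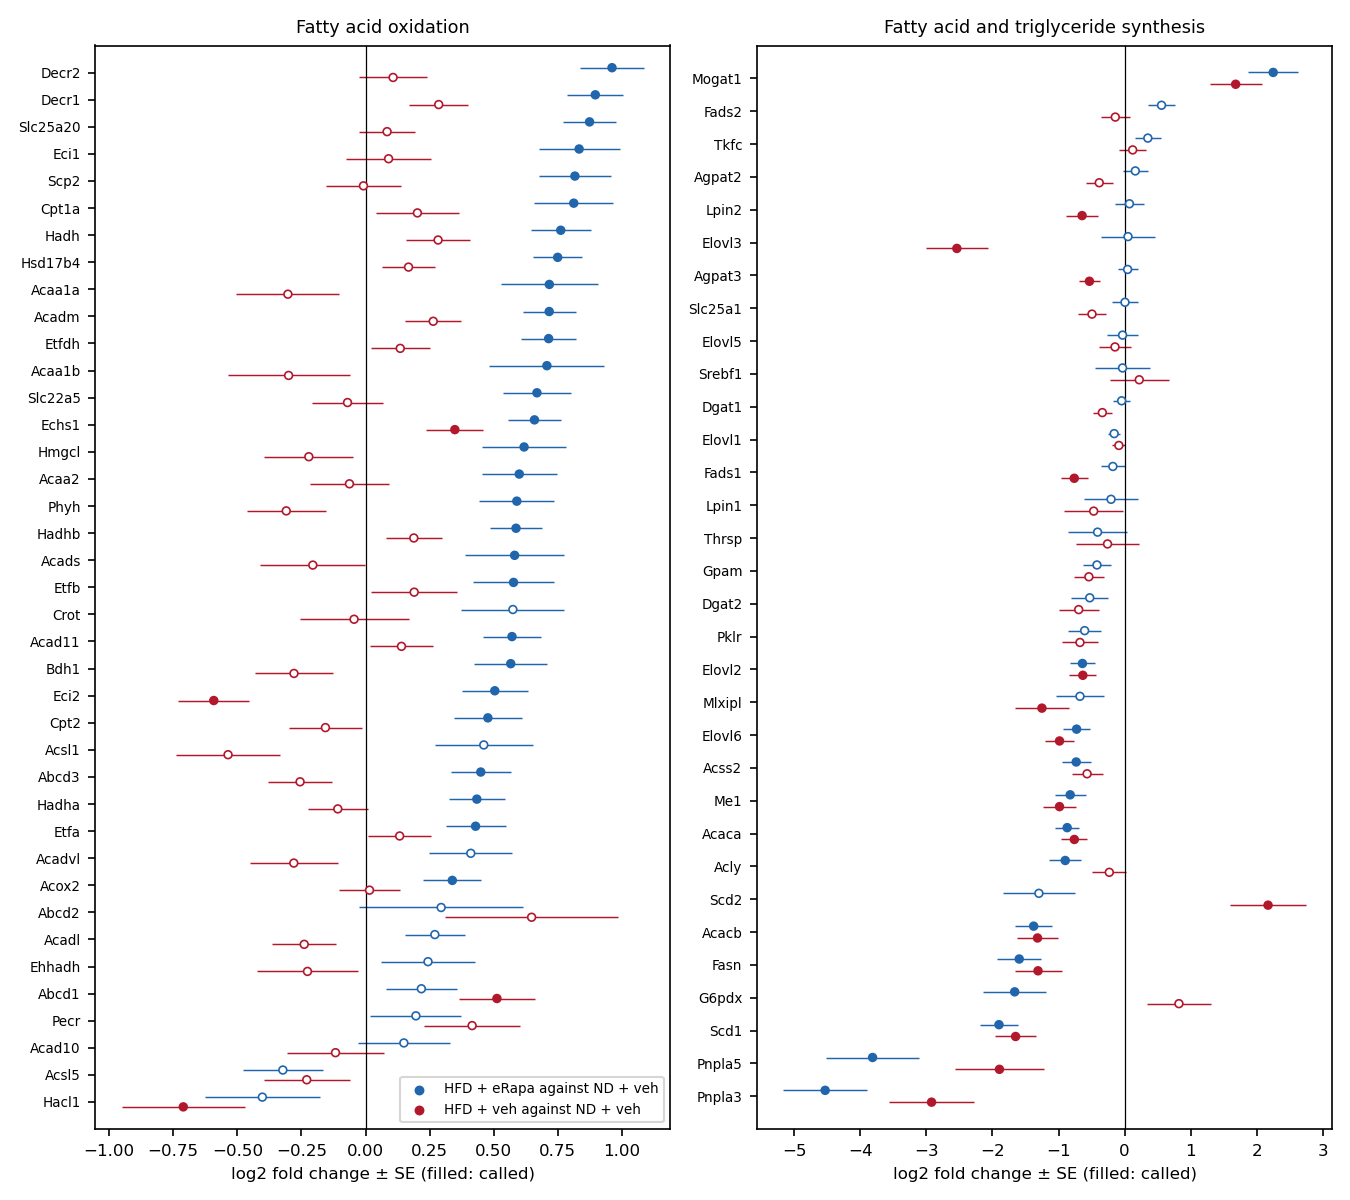
Log2 fold change with its SE for genes of fatty acid oxidation (left) and of fatty acid and triglyceride synthesis (right), in HFD + eRapa (blue) and HFD + veh (red), both against ND + veh. Filled points passed the test. In oxidation most blue points lie to the right of 0 with the red ones near 0, and in synthesis both colours lie to the left for Scd1, Fasn and Acacb.

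The wider set of PPAR alpha targets split. Of 30 members, 15 were higher and 3 lower, with 13 of the rises particular to HFD + eRapa, and in HFD + veh 2 were higher and 6 lower. Pex11a, which promotes the division of peroxisomes, lay at 55.7 to 107 CPM, median 77.2, in ND + veh, 39.6 to 92.1 CPM, median 66.3, in HFD + veh and 108 to 189 CPM, median 151, in HFD + eRapa (log2 fold change 0.96, SE 0.14, adjusted p = 6.99e-05). Vnn1, a pantetheinase, had already risen with the diet (log2 fold change 0.78) and rose further under the drug (1.57, adjusted p = 4.68e-05, and against HFD + veh 0.79, adjusted p = 0.0115). Both targets were non-overlapping between HFD + eRapa and ND + veh. The 3 falls were retained from the diet. Fgf21, a secreted factor that acts on fat and brain, dropped from 8.62 to 129 CPM (median 31.4) in ND + veh to 5.01 to 12.8 CPM, median 8.97, in HFD + eRapa and 2.83 to 12.1 CPM, median 7.80, in HFD + veh (log2 fold change -2.35, SE 0.42, adjusted p = 0.000514). Pdk4, which restrains pyruvate oxidation, fell as well (log2 fold change -1.58, adjusted p = 0.00841). Acot1, a thioesterase of long-chain acyl-CoA, went lowest with the diet alone (-2.32) and was part of the way back in HFD + eRapa (-0.86, adjusted p = 0.0312, and against HFD + veh 1.46, adjusted p = 0.000964). Its call against ND + veh was lost without any 1 of ND + veh replicates 6, 7 and 8 and HFD + eRapa replicates 2, 8 and 9, and over all alternatives its adjusted p reached 0.122.

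A direct repeat of the kind bound by PPAR alpha, 2 copies of AGGNCA with 1 base of any kind between them on either strand, was searched in RefSeq promoters (GRCm38.p6, 250 bases before to 50 after the start). It was in 125 of 32851 promoters (0.381%), which by gene is 122 of 27025 (0.451%). By gene it was in 1 of 22 PPAR alpha targets with a promoter in the table and in none of 33 oxidation genes. The single match was in Fabp1, the liver fatty acid binding protein, which was itself not called (log2 fold change 0.40, adjusted p = 0.319). It is shown because it is the one promoter of these lists with the letters, capitals marking the match, read on the minus strand.

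Fabp1, chr6:71199792-71199844, plus strand: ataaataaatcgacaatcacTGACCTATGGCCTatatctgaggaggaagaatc

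A group of lipid droplet genes rose. Of 26 members, 9 were higher and 1 lower, and 10 were higher against HFD + veh. Cidec (ENSMUSG00000030278.11, chr6:113424634-113435760, minus strand), which fuses droplets into larger ones, ran from 1.82 to 12.9 CPM (median 7.12) in ND + veh, from 4.38 to 25.4 CPM (median 13.01) in HFD + veh and from 20.96 to 95.1 CPM (median 39.7) in HFD + eRapa. No animal of the combined state fell within the ND + veh range (log2 fold change 2.83, SE 0.40, adjusted p = 4.59e-05), and the diet alone was not called (log2 fold change 0.87, adjusted p = 0.105). Its relative Cidea was nearly silent on normal diet, 0 to 1.26 CPM, median 0.187, rose with the diet to a median of 0.887 CPM, and reached 13.4 to 49.0 CPM, median 36.7, in HFD + eRapa (log2 fold change 6.14, SE 0.69, adjusted p = 3.59e-06). Fitm1, a protein of the endoplasmic reticulum that helps droplets bud, had 10.3 to 40.1 CPM, median 22.1, in ND + veh and 44.9 to 99.5 CPM, median 61.1, in HFD + eRapa (log2 fold change 1.48, SE 0.31, adjusted p = 0.0019), whereas its median in HFD + veh was 14.3 CPM. Plin4, a droplet coat protein, rose in both states (log2 fold change 2.13 with eRapa and 1.1 with the diet alone), and Plin2, the coat protein common in hepatocytes, rose in HFD + eRapa (log2 fold change 0.66, adjusted p = 0.00515). Plin3 fell (log2 fold change -0.57, adjusted p = 0.00146). Among secreted proteins, Cfd, the complement protease adipsin that adipocytes secrete, had the largest log2 fold change of the genes in the lists. It went from 0.0315 to 0.314 CPM (median 0.230) in ND + veh through 0.0843 to 1.67 CPM, median 0.626, in HFD + veh to 20.2 to 65.7 CPM, median 45.2, in HFD + eRapa (log2 fold change 7.77, SE 0.46, adjusted p = 1.48e-10). Cav1, the coat protein of caveolae, rose as well (0.227 to 1.66 CPM, median 0.941, against 1.42 to 29.8 CPM, median 7.65; log2 fold change 3.82, SE 0.63, adjusted p = 0.000203), although the animals overlapped. Adipocyte genes chosen after these values were seen were at or near 0, with at most 3 counts of Adipoq, 1 of Plin1, 0 of Lep and 1 of Retn in any HFD + eRapa library. Clstn3, a calsyntenin, was higher in all 9 animals than in any on normal diet (5.50 to 18.3 CPM, median 8.16, against 19.4 to 62.8 CPM, median 50.1; log2 fold change 2.21, SE 0.34, adjusted p = 8.66e-05).

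A group of fatty acid synthesis genes fell, most of them as with the diet alone. Of 32 genes of fatty acid and triglyceride synthesis, 12 were lower and 1 higher, and 9 of the falls were retained, with a median over the list of -0.47 in HFD + eRapa and -0.55 in HFD + veh. Scd1, the desaturase that makes oleate, had the largest fall in mean CPM of the genes called, from 4868 to 30212 CPM (median 24117) in ND + veh to 3795 to 9091 CPM, median 5282, in HFD + eRapa and 2968 to 9332 CPM, median 7634, in HFD + veh (log2 fold change -1.90, SE 0.28, adjusted p = 6.37e-05). The low end of the ND + veh range was replicate 4, at 4868 CPM, and without it the log2 fold change was -2.07, adjusted p = 1.81e-06. Fasn, the fatty acid synthase, ranged from 465 to 3698 CPM (median 2037) and from 348 to 1202 CPM (median 680.5) in these groups (log2 fold change -1.60, SE 0.33, adjusted p = 0.00185). Acacb, the mitochondrial acetyl-CoA carboxylase whose product blocks Cpt1a, followed (log2 fold change -1.38, SE 0.28, adjusted p = 0.00169), and the lipases Pnpla3 and Pnpla5, which were at low counts, had log2 fold changes of -4.53 and -3.81. In none of Scd1, Fasn and Acacb did HFD + eRapa differ from HFD + veh by the test (adjusted p = 0.53, 0.549 and 0.901). Acly, the citrate lyase that feeds the pathway, was particular to the combined state (log2 fold change -0.90, adjusted p = 0.0129, against -0.23 in HFD + veh). The 1 rise was Mogat1, a monoacylglycerol acyltransferase, 0.568 to 3.33 CPM, median 1.27, in ND + veh and 1.95 to 12.2 CPM, median 7.02, in HFD + eRapa (log2 fold change 2.25, SE 0.38, adjusted p = 0.000263), which was also retained.

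Genes of fatty acid uptake and of lipoproteins were called in both directions. Of 19 uptake and binding genes 4 were higher and 2 lower (31.6% called, against 13.5% over all genes tested), the rises going down to 1 or 2 without ND + veh replicates 1, 2, 3, 4 or 6 or HFD + eRapa replicates 3, 6 or 8. Fabp5, a fatty acid binding protein, fell (4.34 to 54.4 CPM, median 28.6, against 3.91 to 16.3 CPM, median 6.01; log2 fold change -2.12, SE 0.48, adjusted p = 0.00393). Of 23 apolipoproteins and assembly factors 1 was higher and 4 lower (21.7%), the latter 2 without ND + veh replicates 1, 2 or 3 or HFD + eRapa replicates 2, 4, 6, 8 or 9. Apom, the carrier of sphingosine 1-phosphate, was a retained fall (log2 fold change -0.69, adjusted p = 0.0182, against -1.14 in HFD + veh). Of 30 antioxidant and glutathione genes 3 were higher and 6 lower. Prdx6, a peroxiredoxin, rose without overlap (357 to 483 CPM, median 406, against 508 to 729.8 CPM, median 601; log2 fold change 0.55, SE 0.13, adjusted p = 0.00473), and Me1, the malic enzyme that supplies NADPH, fell as with the diet (log2 fold change -0.82 and -0.99).

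The direction of the calls in cholesterol synthesis depended on the libraries and the covariate. Of 31 genes, 6 were higher and 1 lower in HFD + eRapa, but 5 were higher and 6 lower with the score of stellate, endothelial and macrophage markers as a covariate, and 3 were higher and 3 lower without the 3 libraries that stand apart. In the fit with all libraries and no covariate, none was higher and 6 were lower in HFD + veh, and 8 rose from HFD + veh to HFD + eRapa. Hmgcs1, the synthase before HMG-CoA reductase, lay at 154 to 384 CPM, median 286, in ND + veh, 137 to 467 CPM, median 345, in HFD + veh and 263 to 1009.8 CPM, median 559, in HFD + eRapa (log2 fold change 1.05, SE 0.25, adjusted p = 0.00497), with some overlap. Msmo1, a sterol oxidase, rose (log2 fold change 1.29, adjusted p = 0.00331) but did not differ from HFD + veh by the test (adjusted p = 0.114). Soat2, which esterifies cholesterol, fell in both states (log2 fold change -0.77 and -0.75). The sterol element TCACNCCAC, on either strand, was in 408 of 32851 promoters (1.24%), which by gene is 388 of 27025 (1.44%). In this list it was in 1 of 21 genes with a promoter in the table, Hmgcs1, shown here with the element in capitals.

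Hmgcs1, chr13:119690194-119690242, plus strand: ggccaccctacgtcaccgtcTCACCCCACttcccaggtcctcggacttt

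Bile acid genes moved singly. Of 21 members, 7 were higher and 2 lower, against 4 and 6 with the marker score as a covariate and 5 and 4 without the 3 libraries that stand apart, and the count of rises went down to 3 without ND + veh replicate 4 or HFD + eRapa replicates 5, 6 or 8, and to 4 without ND + veh replicates 3, 5, 6, 7 or 8 or HFD + eRapa replicates 1, 2 or 3. Cyp39a1 (ENSMUSG00000023963.10, chr17:43667425-43751431, plus strand), the hydroxylase of 24-hydroxycholesterol, was the clearest fall. It ran from 32.8 to 86.5 CPM (median 71.9) in ND + veh, from 30.8 to 60.1 CPM (median 49.2) in HFD + veh and from 2.51 to 24.4 CPM (median 8.87) in HFD + eRapa, with no combined-state animal inside the range of either other group (log2 fold change -2.81, SE 0.35, adjusted p = 9.1e-06, and against HFD + veh -2.31, adjusted p = 0.000102). Cyp2c70, which makes the muricholic acids of mice, fell too (log2 fold change -0.94, adjusted p = 0.00183). Scp2, whose product shortens the side chain in the peroxisome, rose from 2389 to 4296 CPM, median 3904, to 5342 to 8109.5 CPM, median 6558, without overlap (log2 fold change 0.82, SE 0.14, adjusted p = 0.000282). Cyp7a1, the rate-limiting enzyme of bile acid synthesis, varied widely on normal diet, from 17.02 to 286 CPM (median 36.9), against 80.2 to 199 CPM, median 148, in HFD + eRapa, and was not called (log2 fold change 0.74, SE 0.53, adjusted p = 0.413). Abcb11, the bile salt export pump, was retained as a fall (595 to 1395 CPM, median 1242, against 481 to 789.8 CPM, median 618; log2 fold change -0.97, SE 0.17, adjusted p = 0.000446).

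Most genes that break down branched-chain amino acids rose, the larger part being called with the diet alone too. Of 25 genes, 15 were higher and none lower in HFD + eRapa, 10 of them retained. The median log2 fold change over the list was 0.41 against 0.30 in HFD + veh. By the direct test against HFD + veh, 9 were higher and none lower, with a median log2 fold change of 0.29. Hsd17b10, which serves isoleucine breakdown, went from 51.9 to 98.2 CPM (median 73.9) in ND + veh to 154 to 246 CPM, median 207, in HFD + eRapa, above the median of 99.4 CPM in HFD + veh (log2 fold change 1.41, SE 0.16, adjusted p = 2.71e-06, and against HFD + veh 0.86, adjusted p = 0.000706). Ppm1k, the phosphatase that activates the branched-chain dehydrogenase, had 29.4 to 59.4 CPM, median 44.4, and 64.7 to 107 CPM, median 87.1 (log2 fold change 0.98, SE 0.14, adjusted p = 4.97e-05). The groups did not overlap in either gene. Bhmt, which remethylates homocysteine with betaine, was among the 5 largest rises in mean CPM, from 394 to 2158 CPM (median 1088) in ND + veh, from 2148 to 4966 CPM (median 2833) in HFD + veh and from 4076 to 6574 CPM (median 5693) in HFD + eRapa (log2 fold change 2.35, SE 0.28, adjusted p = 6.8e-06). It had risen with the diet and lay further out under the drug (log2 fold change against HFD + veh 0.83, adjusted p = 0.0275). Among 51 genes of the urea cycle and other amino acid breakdown, 13 were higher and 2 lower, with 8 higher when ND + veh replicate 4 was left out. Agxt2 and Aadat, both aminotransferases, were retained rises without overlap (log2 fold change 0.86, adjusted p = 6.13e-07, and 1.06, adjusted p = 2.39e-05).

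A group of drug-metabolising P450 genes fell. Of 37 members of families 1 to 3, 14 were lower and 5 higher in HFD + eRapa, with 6 of the falls retained and 6 particular to the combined state, beside 13 lower and 6 higher in HFD + veh. Cyp3a11, the main P450 of xenobiotic clearance, lay at 581 to 6279 CPM, median 2104, in ND + veh, 119 to 873 CPM, median 440.1, in HFD + veh and 193 to 940.4 CPM, median 414, in HFD + eRapa (log2 fold change -2.52, SE 0.45, adjusted p = 0.000477). Cyp2c38 did not overlap between HFD + eRapa and ND + veh (93.4 to 175 CPM, median 121, against 13.3 to 68.6 CPM, median 38.9; log2 fold change -1.72, SE 0.31, adjusted p = 0.000519), and Cyp2c37 fell too (log2 fold change -2.16, adjusted p = 0.000268). For these 3 genes HFD + eRapa and HFD + veh were not told apart (adjusted p from 0.778 to 0.995). The falls of Cyp2a4, Cyp2a5 and Gstm3 rested on 1 library: ND + veh replicate 4 held 570.3, 1986 and 1210.2 CPM where the median of its group was 25.8, 196 and 94.6 CPM. With it the log2 fold changes were -4.06, -2.38 and -2.79, and without it Cyp2a4 was at -2.17, adjusted p = 0.101, Cyp2a5 at -1.27, adjusted p = 0.0528, and Gstm3 at -1.55, adjusted p = 0.0784. Genes of these clusters are near-identical copies, and how their reads were shared between them is uncertain. Gstm1, a glutathione transferase, fell with or without that library (log2 fold change -1.66, SE 0.36, adjusted p = 0.0028, and without it -1.30, adjusted p = 0.00744). Gsta2, of another transferase family, was called in opposite directions, at medians of 23.3 CPM in ND + veh, 68.6 CPM in HFD + veh and 7.31 CPM in HFD + eRapa (log2 fold change -1.65, SE 0.35, adjusted p = 0.0027; HFD + veh against ND + veh 1.58, adjusted p = 0.00527). Over 49 conjugation enzymes, 8 were higher and 9 lower, and the rises went down to 4 without ND + veh replicate 4 and to 5 without ND + veh replicates 3, 6 or 7 or HFD + eRapa replicates 2 or 3. Tpmt, a methyltransferase of thiopurines, rose in both states, from 20.9 to 28.3 CPM, median 24.02, to 44.5 to 72.0 CPM, median 57.5, without overlap (log2 fold change 1.22, SE 0.10, adjusted p = 4.87e-08).

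Transcripts of the mitochondrial genome were among those that gained most in mean CPM, namely mt-Co1, mt-Cytb and mt-Nd4. Of its 13 protein-coding genes, 7 were higher and none lower in HFD + eRapa, with a median log2 fold change of 0.72 against 0.64 in HFD + veh, where 8 were higher. mt-Cytb, the cytochrome b of complex III, ran from 5329.8 to 12749.6 CPM (median 8432) in ND + veh, from 7951 to 14044 CPM (median 12291) in HFD + veh and from 12195 to 21292 CPM (median 15897) in HFD + eRapa (log2 fold change 0.93, SE 0.16, adjusted p = 0.000229). Subunits encoded in the nucleus moved less: 7 of 79 were higher and none lower (8.86% called, against 13.5% over all genes tested). Their median log2 fold change was 0.28. The count of rises went down to 0 without the 3 libraries that stand apart, and to 1 without ND + veh replicate 1 or 4. It went down to 2 without ND + veh replicate 3 or HFD + eRapa replicate 8. It was 3 or 4 without ND + veh replicates 2 or 6, HFD + veh replicate 3 or HFD + eRapa replicates 1, 2, 3 or 5. Glycolysis and gluconeogenesis were mixed (5 of 36 higher, 4 lower, with 2 higher without ND + veh replicate 4 and 2 lower without replicate 6). Gpd1, the glycerol phosphate dehydrogenase, rose in HFD + eRapa and was not called with the diet alone (215 to 433 CPM, median 337, against 416 to 783 CPM, median 695; log2 fold change 1.02, SE 0.18, adjusted p = 0.000456; HFD + veh -0.35, adjusted p = 0.181). Ldha, a lactate dehydrogenase subunit, rose likewise (log2 fold change 0.66, adjusted p = 0.00205). Of 46 mitochondrial carriers, 6 were higher and 2 lower (17.4% called, near the 13.5% over all genes tested). Slc25a10, the dicarboxylate carrier, was among the rises (log2 fold change 0.97, adjusted p = 0.00189).

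Plasma membrane transporters changed gene by gene. Of 34 transporters of organic anions, cations and bile acids, 5 were higher and 6 lower. Slco2a1 (ENSMUSG00000032548.14, chr9:102988712-103096002, plus strand), the prostaglandin transporter, fell in steps. Its level was 46.6 to 129.6 CPM, median 107, in ND + veh, 31.8 to 86.3 CPM, median 50.8, in HFD + veh and 11.7 to 28.0 CPM, median 23.4, in HFD + eRapa, the last below every animal of both other groups (log2 fold change -2.13, SE 0.22, adjusted p = 6.13e-07, and against HFD + veh -1.36, adjusted p = 0.000179). Slc22a7, an organic anion transporter, rose in steps, from 6.45 to 22.4 CPM (median 10.3) in ND + veh, from 8.22 to 69.1 CPM (median 28.8) in HFD + veh and from 46.1 to 158 CPM (median 103) in HFD + eRapa (log2 fold change 2.96, SE 0.44, adjusted p = 6.99e-05). Slco1a1, another organic anion transporter, showed no call in the combined state (95.7 to 565 CPM, median 352, in ND + veh and 199 to 732 CPM, median 496, in HFD + eRapa; log2 fold change 0.39, SE 0.44, adjusted p = 0.636), although with the diet alone it had dropped to 1.98 to 26.4 CPM, median 4.43. Slco1a4, of the same family, was particular to the combined state (51.8 to 86.4 CPM, median 60.9, against 13.5 to 47.4 CPM, median 24.04; log2 fold change -1.18, SE 0.28, adjusted p = 0.00507, and against HFD + veh -1.25, adjusted p = 0.00276).

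Carriers of sugars, nucleosides, monocarboxylates and ions were called in both directions. Of 39, 6 were higher (3 without HFD + eRapa replicate 6) and 7 lower. Slc23a1, a vitamin C transporter, was a retained rise without overlap (41.1 to 86.9 CPM, median 55.1, against 88.6 to 108 CPM, median 98.2; log2 fold change 0.80, SE 0.14, adjusted p = 0.000459). Slc17a4, a urate and anion carrier, was particular to the combined state and lower (86.4 to 159.6 CPM, median 126, against 44.4 to 88.4 CPM, median 59.5; log2 fold change -0.99, SE 0.13, adjusted p = 1.45e-05). Among exporters Abcg2 rose (log2 fold change 0.84, adjusted p = 0.00344), and Slc22a5, the carnitine importer that feeds the shuttle of Cpt1a and Slc25a20, rose without overlap (18.5 to 32.3 CPM, median 23.7, against 34.0 to 51.9 CPM, median 38.0; log2 fold change 0.67, SE 0.13, adjusted p = 0.00116).

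Amino acid transporters were lower or not called. Of 29 members, 7 were lower and none higher, 4 of them lower without ND + veh replicate 6 or HFD + eRapa replicates 5 or 9, and in HFD + veh 6 were higher and 4 lower. Slc7a5, the exchanger of large neutral amino acids such as leucine, lay at 3.65 to 5.45 CPM, median 4.76, in ND + veh, 0.417 to 5.31 CPM, median 3.56, in HFD + veh and 0.461 to 1.48 CPM, median 1.01, in HFD + eRapa, below all animals on normal diet (log2 fold change -2.24, SE 0.35, adjusted p = 0.000121, and against HFD + veh -1.61, adjusted p = 0.0024). Its level was low in all groups, and the deposited FPKM lists it at 0 in every library. Slc3a2, the chain it pairs with, fell as well (36.4 to 61.3 CPM, median 48.6, against 24.8 to 33.9 CPM, median 27.2; log2 fold change -0.78, SE 0.14, adjusted p = 0.000395). The taurine transporter Slc6a6 fell from 100.03 to 208 CPM, median 122, to 52.6 to 84.3 CPM, median 61.6, without overlap (log2 fold change -1.02, SE 0.14, adjusted p = 1.98e-05). Among 27 genes of metal transport and storage, 2 were higher and 5 lower, the latter 3 without ND + veh replicates 6 or 7 or HFD + eRapa replicates 5, 6, 8 or 9. Hamp2 (ENSMUSG00000056978.8, chr7:30922372-30924681, minus strand), a hepcidin-like peptide gene, ran from 4.79 to 86.5 CPM (median 26.9) in ND + veh, from 10.8 to 103 CPM (median 35.5) in HFD + veh and from 0.369 to 1.46 CPM (median 0.619) in HFD + eRapa, where all animals were below those of the other groups (log2 fold change -5.48, SE 0.52, adjusted p = 3.47e-07). Hamp, the iron-regulating hepcidin gene beside it, had a log2 fold change of -0.58 (adjusted p = 0.3). Slc39a4, a zinc importer, was called in opposite directions, with medians of 12.2, 38.9 and 2.49 CPM in ND + veh, HFD + veh and HFD + eRapa (log2 fold change -2.12, SE 0.46, adjusted p = 0.00293). Steap4, a metalloreductase, was a retained rise (log2 fold change 0.98, adjusted p = 9.45e-05).

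A group of matrix genes was lower in the combined state than on normal diet, while most did not pass the test. Over 115 genes of 3 matrix lists (collagens, glycoproteins with proteoglycans, and enzymes with their inhibitors), 35 were lower and 4 higher in HFD + eRapa, 28 of the falls particular to that state, with a median log2 fold change of -0.96 against 0.62 in HFD + veh, where 28 were higher and 6 lower. Ecm1 (ENSMUSG00000028108.15, chr3:95734147-95739569, minus strand), a secreted protein that binds latent TGF beta, ran from 15.8 to 93.1 CPM (median 45.7) in ND + veh, from 9.76 to 65.0 CPM (median 24.3) in HFD + veh and from 6.32 to 14.9 CPM (median 10.6) in HFD + eRapa. All combined-state animals lay below all those on normal diet (log2 fold change -2.19, SE 0.35, adjusted p = 0.000177, and against HFD + veh -1.68, adjusted p = 0.00189). Of 21 collagens 9 were lower and none higher, the falls being 4 with limma voom or without the 3 libraries that stand apart. Col14a1, a collagen of fibril surfaces, went from 4.99 to 45.3 CPM, median 22.2, to 2.66 to 13.6 CPM, median 6.54, with overlap (log2 fold change -1.77, SE 0.43, adjusted p = 0.00714). Col1a1, the main fibrillar collagen chain, was not called (0.114 to 9.00 CPM, median 1.497, against 0.338 to 2.29 CPM, median 1.41; log2 fold change -1.17, SE 0.75, adjusted p = 0.353), and was higher with the diet alone (log2 fold change 2.63, adjusted p = 0.0209), where 1 animal reached 68.9 CPM. The proteoglycans Prelp and Bgn fell with overlapping animals (log2 fold change -1.85, adjusted p = 0.00402, and -1.69, adjusted p = 0.00935). Among the enzymes, Adamts7, a secreted metalloproteinase, was lower in all animals (3.93 to 12.3 CPM, median 7.18, against 1.03 to 2.66 CPM, median 1.46; log2 fold change -2.30, SE 0.31, adjusted p = 1.92e-05), as was Itih5, which links hyaluronan (7.82 to 18.1 CPM, median 12.8, against 2.89 to 6.08 CPM, median 4.72; log2 fold change -1.46, SE 0.18, adjusted p = 6.79e-06). Reck, an anchored inhibitor of matrix proteases, fell too (log2 fold change -2.41, adjusted p = 7.87e-05). The rises were Spp1, Lamb3, Itih3 and Adamts5. Spp1, osteopontin, had medians of 2.79 CPM in ND + veh, 95.3 CPM in HFD + veh and 13.2 CPM in HFD + eRapa, so that it had moved part of the way back (log2 fold change 2.64, SE 0.67, adjusted p = 0.00903; 2.67, adjusted p = 0.0618 with limma voom). Lamb3, a laminin chain of basement membranes, rose without overlap (2.09 to 5.57 CPM, median 2.97, against 8.41 to 20.6 CPM, median 10.48; log2 fold change 1.81, SE 0.28, adjusted p = 8.27e-05). Of 29 integrins and other matrix receptors 1 was higher and 2 lower (10.3% called, against 13.5% over all genes tested). Itga5, the fibronectin receptor chain, was among the falls (log2 fold change -0.86, adjusted p = 0.000217).

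Markers of stellate cells and fibroblasts moved with the matrix genes. Of 15 tested, 8 were lower and none higher, their median log2 fold change was -1.40, and their summed level was 53.8 to 376 CPM (median 194) in ND + veh, 58.2 to 701 CPM (median 233) in HFD + veh and 35.4 to 146 CPM (median 69.9) in HFD + eRapa. HFD + eRapa replicates 1 to 4 held 69.9 to 146 CPM, within the range of ND + veh, and replicates 5 to 9 held 35.4 to 70.7 CPM. Matrix genes make up 8 of the 15. Over the other 107 matrix genes, 31 were lower and 4 higher, with a median of -0.88. With a score of stellate, endothelial and macrophage markers as a covariate, 7 collagens, 13 glycoproteins or proteoglycans and 12 enzymes or inhibitors were lower, beside 0, 6 and 9 higher, and Ecm1 (-1.42, adjusted p = 6.05e-05), Prelp (-0.94, adjusted p = 0.000283) and Bgn (-0.73, adjusted p = 0.00239) had smaller changes, while Reck (-2.72, adjusted p = 5.57e-06) and Adamts7 (-2.40, adjusted p = 6.77e-06) did not. Ecm1 and the other matrix genes among the stellate markers are part of this score. Their adjusted changes therefore draw partly on their own values, and the fit cannot settle the share of these cells in them. The part of these cells in the result was not tested beyond this fit.

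**Figure D4:**
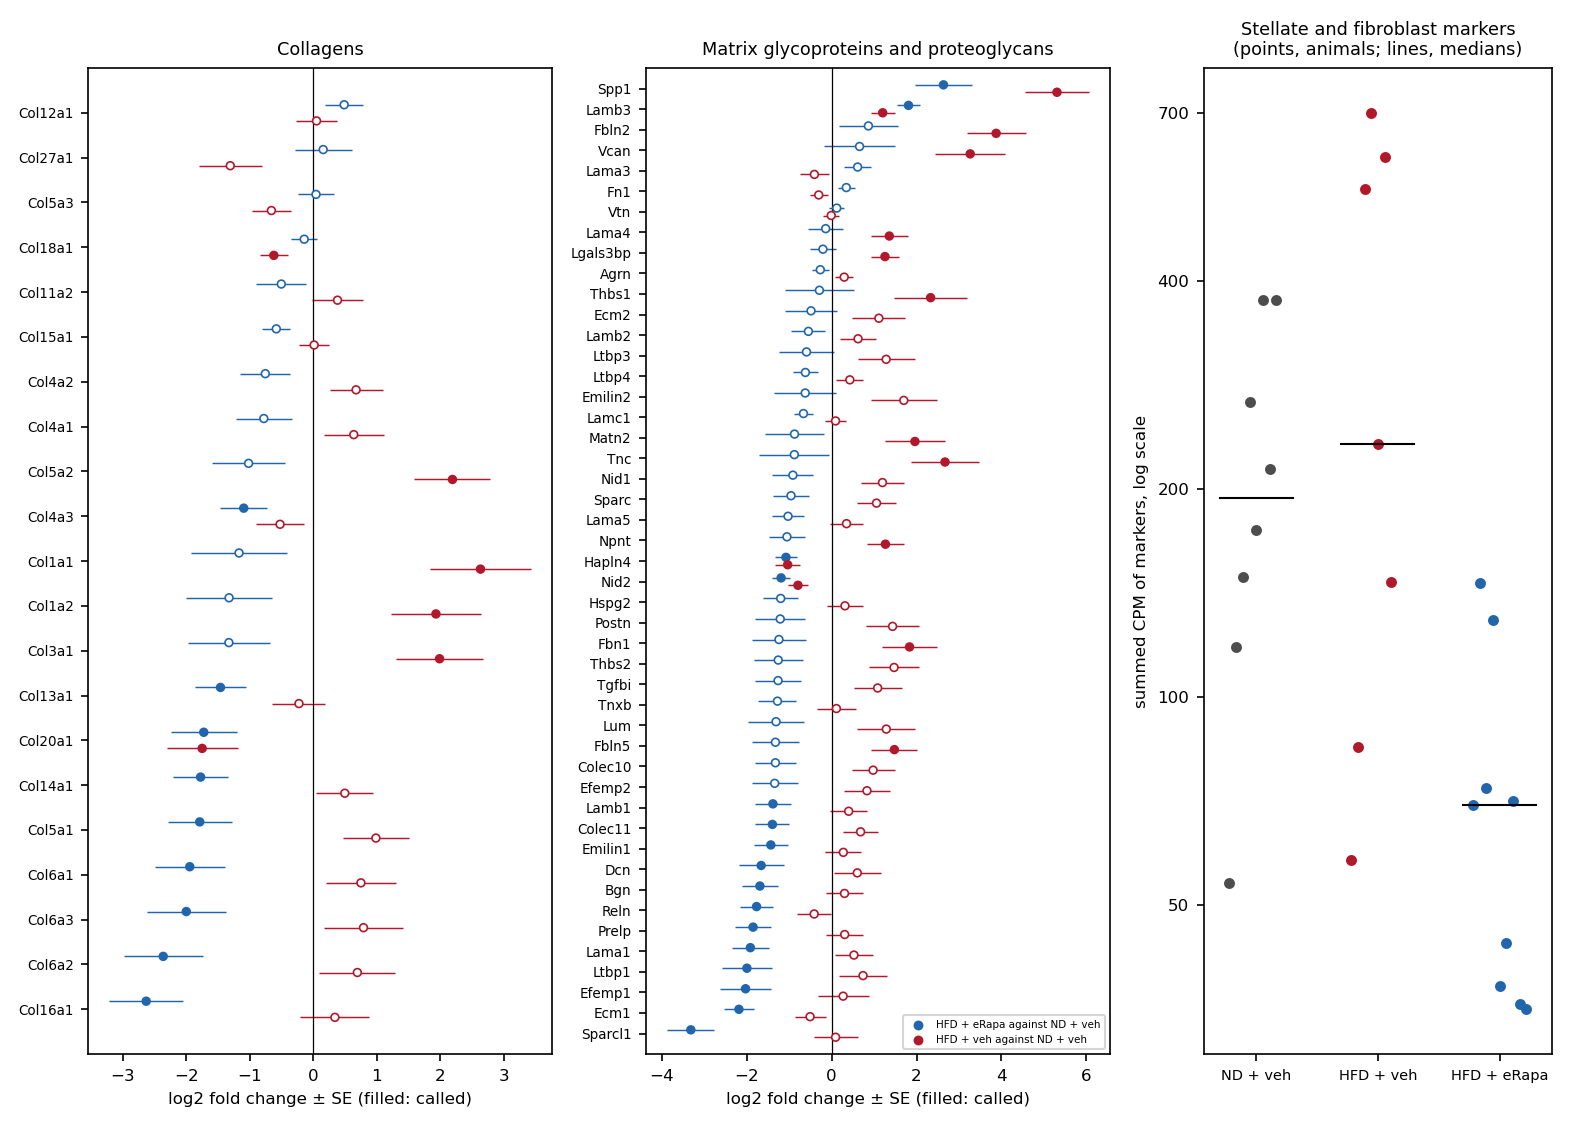
Left and centre, log2 fold change with its SE of 21 collagens and 47 matrix glycoproteins and proteoglycans in HFD + eRapa (blue) and HFD + veh (red) against ND + veh, filled where the test was passed. Right, summed CPM of stellate and fibroblast markers in each animal on a log scale, with group medians of 194, 233 and 69.9 CPM. Most blue points lie to the left of 0 and most red ones to the right.

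Several genes of secreted liver proteins rose. Of 19 major urinary protein genes, which encode pheromone carriers of male liver, 14 were higher and none lower, 9 particular to HFD + eRapa and 5 called in opposite directions, since 6 were lower in HFD + veh. Mup17 had 0.419 to 4.50 CPM, median 1.76, in ND + veh, 0.139 to 3.24 CPM, median 1.01, in HFD + veh and 15.5 to 489 CPM, median 144, in HFD + eRapa, without overlap (log2 fold change 6.56, SE 0.73, adjusted p = 2.98e-06). Mup15 and Mup7 were called in opposite directions (log2 fold change 5.55 and 4.38 in HFD + eRapa, -2.66 and -3.27 in HFD + veh), whereas Mup20, at a median of 4066 CPM in ND + veh, was not called (-0.14, adjusted p = 0.839). The genes of this cluster are close copies, so values of single members are uncertain. Serpina1e, an antitrypsin copy with the same reservation, rose with overlap (18.6 to 617 CPM, median 171, against 322 to 8429 CPM, median 3415; log2 fold change 3.61, SE 0.80, adjusted p = 0.00355), and Serpina3k was among the largest gains in mean CPM (log2 fold change 0.92, adjusted p = 0.013). Selenbp2, a selenium binding protein, rose as well (log2 fold change 3.74, adjusted p = 0.00203). Igf1, the growth factor that growth hormone induces in liver, was a retained rise (223 to 498 CPM, median 383, in ND + veh, 355 to 727 CPM, median 626, in HFD + veh and 477 to 976 CPM, median 694, in HFD + eRapa; log2 fold change 0.89, SE 0.17, adjusted p = 0.000632). Of 22 genes of the growth hormone and insulin-like growth factor axis, 4 were higher and 3 lower, the latter 0 or 1 without ND + veh replicates 4, 6, 7 or 8, HFD + veh replicate 5 or HFD + eRapa replicates 5, 6, 8 or 9. Serpina12, the adipokine vaspin, rose from 18.2 to 63.8 CPM, median 39.1, to 87.2 to 332 CPM, median 132, without overlap (log2 fold change 2.01, SE 0.31, adjusted p = 0.000112).

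A group of acute phase genes rose, most of them as with the diet alone. Of 38 members, 12 were higher and 1 lower, 8 of the rises retained, beside 14 higher in HFD + veh. Saa1, serum amyloid A, lay at 6.58 to 38.7 CPM, median 19.5, in ND + veh, 27.1 to 99.3 CPM, median 64.9, in HFD + veh and 59.9 to 957 CPM, median 88.6, in HFD + eRapa (log2 fold change 3.14, SE 0.55, adjusted p = 0.000399). HFD + eRapa replicate 2 held the highest value, and without it the log2 fold change was 2.05, adjusted p = 2.47e-05. Its neighbour Saa2, a close copy, moved in the same way (log2 fold change 3.04). Lcn2, which binds bacterial siderophores, rose with overlap (1.25 to 23.4 CPM, median 4.63, against 15.9 to 106 CPM, median 45.3; log2 fold change 2.79, SE 0.54, adjusted p = 0.000976), and Hp, haptoglobin, rose without (1724 to 3037 CPM, median 2368, against 3596 to 5840.3 CPM, median 4227; log2 fold change 0.98, SE 0.15, adjusted p = 8.33e-05). Of 44 complement and coagulation genes 7 were higher and none lower (15.9% called, near the 13.5% over all genes tested). C9, a pore subunit, was among the rises (log2 fold change 1.12, adjusted p = 4.68e-05). In contrast, of 43 interferon-stimulated genes, 39 of which were higher in HFD + veh, only Bst2, a surface protein that tethers viruses, was called, and it was lower (135 to 528 CPM, median 239, against 66.2 to 145 CPM, median 124; log2 fold change -1.24, SE 0.24, adjusted p = 0.00114). All 43 fell from HFD + veh to HFD + eRapa by the direct test.

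Called stress and clock genes lay on the same side as with the diet alone. Of 37 genes of endoplasmic reticulum chaperones and the unfolded protein response, 13 were lower and none higher, 8 retained. The median was -0.43 in HFD + eRapa and -0.46 in HFD + veh. With the marker score as a covariate 20 were lower and none higher. Sdf2l1, a chaperone cofactor, ran from 31.4 to 116 CPM (median 60.4) in ND + veh and from 8.49 to 44.6 CPM (median 19.5) in HFD + eRapa (log2 fold change -1.55, SE 0.32, adjusted p = 0.00171). Trib3, a pseudokinase induced by this stress, fell in both states (log2 fold change -1.90 and -1.99). Of 19 clock genes, 5 were higher and 3 lower, all 8 retained, and none differed between HFD + eRapa and HFD + veh by the test. Among them Nr1d2, a repressor in the clock loop, was higher (log2 fold change 1.11, SE 0.20, adjusted p = 0.000596) and Cry1, another, was lower (log2 fold change -1.07, SE 0.25, adjusted p = 0.00522). Dbp, an output factor of the clock, was spread over 0.664 to 21.6 CPM, median 1.52, in ND + veh and 3.94 to 117 CPM, median 38.5, in HFD + eRapa (log2 fold change 3.08, SE 0.94, adjusted p = 0.03), and its adjusted p ranged up to 0.0893 over the alternatives. The count of higher clock genes was between 1 and 3 without any 1 of ND + veh replicates 1, 4, 5, 6, 7 and 8, HFD + eRapa replicates 3, 5, 6, 7, 8 and 9, and HFD + veh replicate 4. The hour at which livers were collected is not given in the sources used here.

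Among transcripts of the pathway that rapamycin acts on, the share called was near that over all genes tested. These counts are of mRNA of its components and do not measure the activity of the kinase. By western blot, the authors reported a lower ratio of phosphorylated to total S6 in HFD + eRapa than in HFD + veh. Of 42 genes of insulin signalling and the mTOR complexes, 2 were higher and 5 lower (16.7% called, against 13.5%), the latter 2 or 3 without ND + veh replicates 6 or 7 or HFD + eRapa replicates 2, 4, 6, 8 or 9. Ddit4, an inhibitor of mTOR complex 1, lay at 6.73 to 39.1 CPM, median 11.7, in ND + veh, 5.51 to 16.1 CPM, median 11.3, in HFD + veh and 1.61 to 5.60 CPM, median 3.79, in HFD + eRapa, without overlap between HFD + eRapa and ND + veh (log2 fold change -1.91, SE 0.32, adjusted p = 0.000236). Pik3r1, the regulatory subunit of the insulin-activated lipid kinase, was a retained rise (41.6 to 63.8 CPM, median 54.1, against 66.7 to 111 CPM, median 85.5; log2 fold change 0.71, SE 0.12, adjusted p = 0.000362). None of 78 cytosolic ribosomal protein genes was called by edgeR, DESeq2 or limma voom, and 1 had an unadjusted p under 0.05. Their median log2 fold change was 0.01. Of 35 nuclear receptors and hepatocyte transcription factors 2 were higher and 1 lower (2 and 4 with the marker score as a covariate). The share called was 8.57%, below the 13.5% over all genes tested. The diet alone gave 2 rises and 6 falls in this list. By the direct test against HFD + veh, 12 members rose and 1 fell in HFD + eRapa. Esr1, the estrogen receptor, rose (log2 fold change 1.33, SE 0.24, adjusted p = 0.000445) and Ppard, the delta form of PPAR, fell (10.4 to 42.3 CPM, median 23.6, against 3.58 to 11.7 CPM, median 5.77; log2 fold change -2.05, SE 0.27, adjusted p = 1.39e-05), both as with the diet alone. Ppara itself had a log2 fold change of 0.71 (adjusted p = 0.0363), and it missed the threshold without ND + veh replicates 2, 3, 4, 5, 6 or 8 or HFD + eRapa replicates 3, 4, 6 or 9, with adjusted p up to 0.103 over all alternatives.

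The genes of each class with the largest changes and no overlap included several outside the lists above. Raet1d, a ligand of the NKG2D receptor of lymphocytes, was a retained rise, from 0.624 to 5.98 CPM (median 3.07) in ND + veh, from 25.2 to 35.9 CPM (median 30.4) in HFD + veh and from 11.997 to 38.8 CPM (median 20.9) in HFD + eRapa (log2 fold change 2.94, SE 0.34, adjusted p = 4.3e-06), and it did not differ between both states on high-fat diet by the test (log2 fold change -0.35, adjusted p = 0.415). Emp2, an epithelial membrane protein, and Rnf145, a ubiquitin ligase of sterol metabolism, fell with the diet and further with eRapa (log2 fold change -2.09 and -1.60 against ND + veh, -1.38 and -0.93 against HFD + veh, adjusted p = 0.000174 and 0.000442). Ndrg1 fell in both (log2 fold change -2.05 and -1.53). Particular to HFD + eRapa were the rises of Rarres1 (9.87 to 49.998 CPM, median 16.5, against 56.9 to 170.4 CPM, median 67.4; log2 fold change 2.2, SE 0.33, adjusted p = 8.29e-05) and Nrep (log2 fold change 1.94, adjusted p = 0.00065), and the falls of Cd9, a tetraspanin (30.5 to 52.4 CPM, median 42.4, against 9.01 to 25.4 CPM, median 12.8; log2 fold change -1.48, SE 0.29, adjusted p = 0.00114), Crlf2, a cytokine receptor subunit (log2 fold change -1.24, adjusted p = 0.000125), and Bin1, which bends membranes (log2 fold change -1.22, adjusted p = 1.25e-06). The plot of single animals shows 15 of the genes described.

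**Figure D5:**
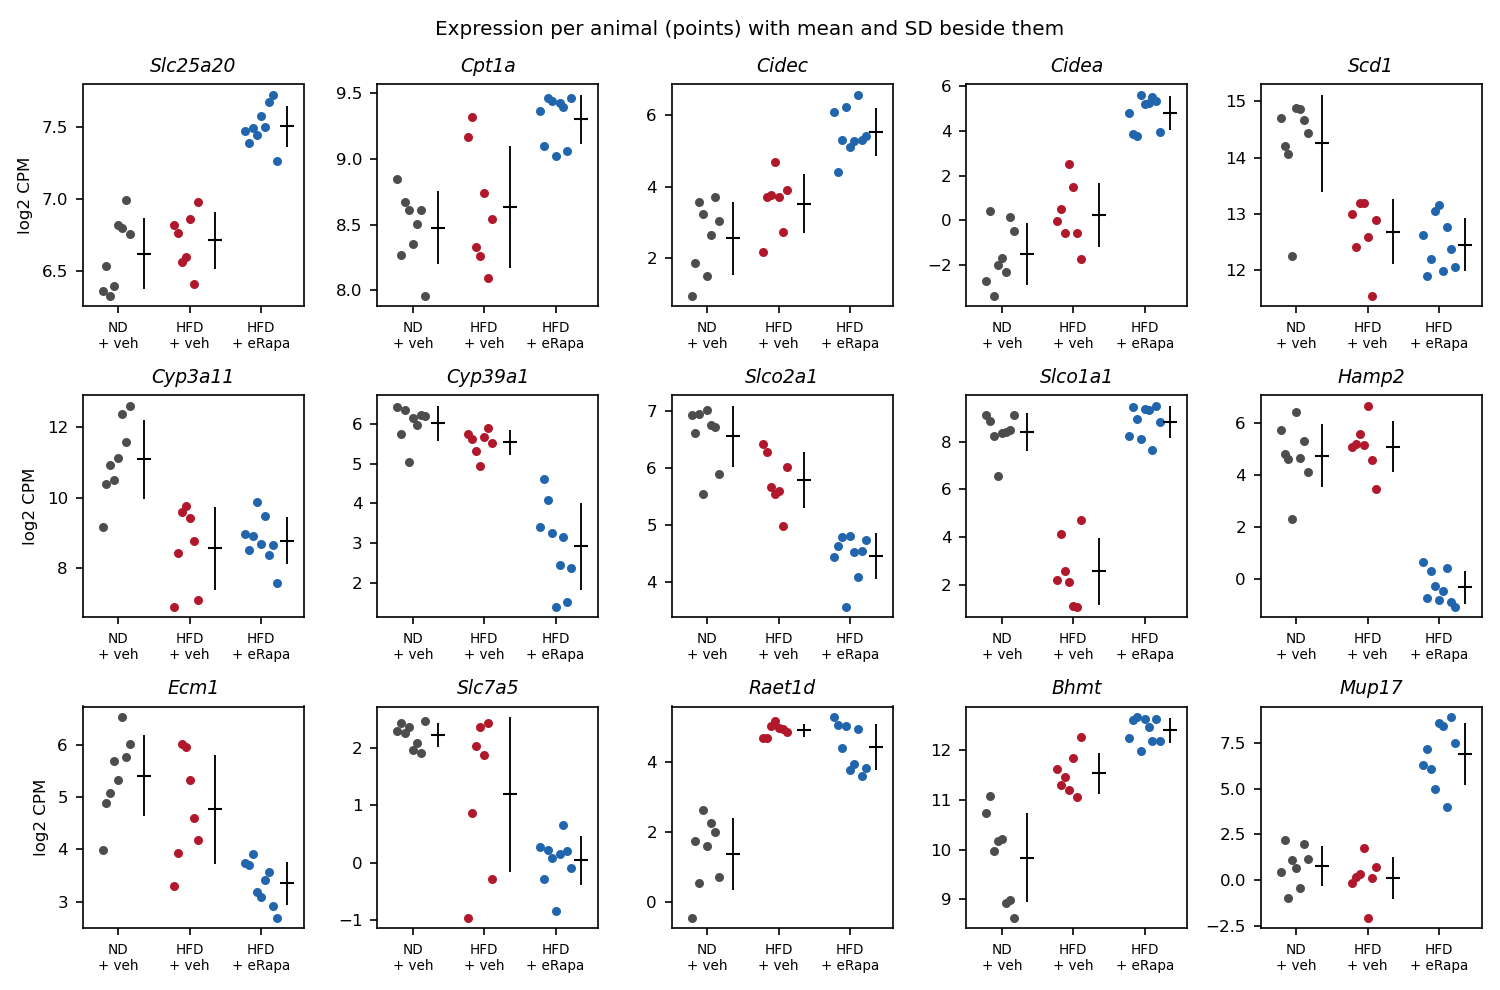
Log2 CPM of 15 genes in each animal of ND + veh (n = 8), HFD + veh (n = 7) and HFD + eRapa (n = 9), with the mean and SD beside the points, each panel on its own axis. Slc25a20, Cpt1a, Cidec, Cidea, Bhmt and Mup17 lie higher and Cyp39a1, Slco2a1, Hamp2, Ecm1 and Slc7a5 lower in all HFD + eRapa animals than in ND + veh, while Slco1a1 overlaps in these 2 groups and lies lower in HFD + veh.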

How the data were processed

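The series held 24 polyA RNA-seq libraries of mouse hepatocytes. The authors aligned reads with STAR to mm10 (GENCODE annotation), used SAMtools 1.1.0 and counted reads per gene with HTSeq 0.11.2, and these deposited counts were used here as they stand. The strand setting of the counting is not given in the sources used here, so overlapping and antisense genes cannot be told apart. The authors also deposited FPKM from Cufflinks, which served only as an alternative, with pseudocounts of 1 and 0.1 on the log2 scale. Totals of 17.74 to 25.95 M counts limit precision for genes below about 1 CPM.

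Here 13847 of 55421 genes passed edgeR's expression filter. All 24 libraries were fitted together in edgeR 4.0.16 (R 4.3.3; TMM scaling, robust quasi-likelihood test), with Benjamini-Hochberg adjustment over all genes tested, and genes were called at an adjusted p under 0.05. Every adjusted p is from this test unless another is named. All folds are log2 fold changes, with an SE derived from the test statistic. In a simulation on 13658 genes with 200 changed by 1 on the log2 scale between HFD + eRapa and ND + veh, 161 were recovered among 169 called. False calls made up 4.73% in edgeR and 15% in DESeq2. The changed genes were drawn from those with higher expected counts, and HFD + veh was given no change. The simulation therefore does not cover genes at low counts or differences in cell content. Alternatives were DESeq2 1.42.0, limma 3.58.1 (voom, or FPKM), other scaling and filters, the 2 groups fitted alone, a replicate block, a marker score covariate, a minimum log2 fold change of 1, 3 libraries left out and each library left out. Genes were matched to GENCODE M21 (55154 identifiers) for coordinates on mm10 (GRCm38).

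The comparison, gene lists and named genes were chosen with earlier results of these data known. Named genes were the 8 largest rises and falls, the 5 largest of each class without overlap, the 5 largest changes in mean CPM, up to 4 called members per list and direction, and Alb, Cyp7a1, Cyp39a1, Slco1a1, Slco2a1, Ecm1, Col1a1, Cpt1a and Igf1. Acadvl, Acadl, Ehhadh, Crot, Fabp1, Plin2, Pnpla3, Pnpla5, Acly, Slc3a2, Hamp, Adamts5, Mup20, Hp and the adipocyte genes were named after their values were seen. Results for a few genes are not reported here. The labels do not say that equal replicate numbers share an animal, litter or day. Deviations of HFD + eRapa and ND + veh libraries of equal number had a mean correlation of -0.203, so the numbers were not used as pairs. Replicates are taken as separate animals, and p-values measure the spread between these libraries.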

Additional observations from a re-analysis of the deposited data

Results flagged for a closer look

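In 110 groups of values tested, the highest or lowest library lay apart from the rest by Dixon's criterion in 19, where chance would give about 5.5. ND + veh replicate 4 had 9 of them. On the log2 CPM scale it was low in Abcb11 (9.22), Alb (15.36), Scd1 (12.25) and Slco1a1 (6.58) and high in Cyp2a5 (10.96), Gstm1 (12.49), Gstm3 (10.24) and Rarres1 (5.65), and its sum of hepatocyte markers was 74771 CPM. ND + veh replicate 1 was low in Saa1 (2.74) and Saa2 (0.98). ND + veh replicate 8 was high in mt-Co1 (15.08), mt-Nd4 (12.81) and the sum of lymphocyte markers (11.3 CPM).

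HFD + eRapa replicate 2 was high in Saa1 (9.90), Saa2 (8.07) and the sum of red blood cell markers (311 CPM). HFD + eRapa replicate 9 was low in Cyp2a5 (4.42), and HFD + eRapa replicate 4 was high in Rnf145 (4.21).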

How the results depend on the processing

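Of 183 named genes that were called, 124 stayed called under every alternative that could test them, at most 35 and not counting a minimum fold change, and none reversed. Without a filter on low counts the retained genes were 415. With a log2 fold change of at least 1, 711 genes were called, 209 retained and 316 particular to HFD + eRapa. With the marker score as a covariate these were 3219, 1379 and 317. The cause was not tested. Leaving out 1 library at a time gave 1462 (without ND + veh replicate 6) to 2232 (without HFD + veh replicate 6) called, 508 to 749 retained and 580 to 801 particular. Without ND + veh replicate 4, 32 of these 183 named genes lost their call, and without ND + veh replicate 6 the number was also 32. With log2(FPKM + 1) 35.8% of 1476 calls were higher, and with log2(FPKM + 0.1) 35.6% of 1565, against 51.4%, with medians over all genes of -0.08 and -0.12. With limma voom 58% of the genes particular to HFD + eRapa were higher, against 46.9%. With the replicate block 1575 genes were called, 562 retained and 545 particular, and 7 nuclear respiratory genes called higher became 25. Equal numbers were not taken as pairs: between HFD + eRapa and ND + veh 0 of 8 libraries correlated best with their own number (mean r -0.20), and between HFD + veh and ND + veh 3 of 7 did (mean r 0.32, from -0.36 to 0.73). Genes listed at FPKM 0 in every library, 91 of those tested, could not be compared in FPKM.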
